A study of Homo sapiens with 32 samples.

Results

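The genes described here encode 9 transcription factors of myeloid differentiation: 5 members of the C/EBP family (CEBPA, CEBPB, CEBPD, CEBPE and CEBPG), and SPI1, which encodes PU.1, GFI1, IRF8 and KLF4. They were chosen by name, but with earlier results of these data known. They are 9 of the 19775 genes that the arrays measured with a probe set naming a single gene. Each gene was read from its probe set of highest mean level. All 9 passed the filter on low values, which left 15455 genes for testing.

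C/EBP proteins are leucine zipper factors that bind DNA as homodimers or heterodimers with each other. C/EBPα and PU.1 open the granulocyte and monocyte programme in blood progenitors, C/EBPε acts late in granulocyte maturation, and IRF8 and KLF4 favour monocytes. GFI1 is a zinc finger repressor needed for neutrophils, while its relative GFI1B and the factor GATA1 act in red cell and platelet precursors.

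Total RNA of 32 untreated acute myeloid leukaemia (AML) cell lines from commercial cell banks was hybridised to Affymetrix arrays, 1 array per line. The study set expression beside each line's sensitivity to PIM kinase inhibitors, which was not used here. Levels are log2(signal + 16), in which 1 unit is a doubling of the signal, and the median over all probe sets and arrays was 6.73. The labels name each line but not its lineage, so the origins used below are what is known of each named line. The granulocytic lines were HL-60 and its subline PLB-985, NB-4 (known for a PML-RARA fusion), KASUMI-1 (RUNX1-RUNX1T1 fusion), SH-2 and PL-21; the granulocytic origin of SH-2 and PL-21 is less certain than that of the others. The monocytic lines were MOLM-13, THP-1, MV4-11, NOMO-1 and SHI-1, all known for KMT2A fusions, and SKM-1. The erythroid lines were F-36P, KMOE-2, OCI-M1, OCI-M2 and HEL. A further 6 lines were myelomonocytic (GDM-1, ML-2, OCI-AML2, OCI-AML3, OCI-AML5 and ME-1), 2 were megakaryoblastic (MO7E and SET2), and 7 had another or a mixed origin (EOL-1, MOLM-16, KG-1, its subline KG-1A, HNT-34, FKH-1 and GF-D8). HL-60 was averaged with PLB-985 and KG-1 with KG-1A, which gave 30 units, 16 of them granulocytic (5), monocytic (6) or erythroid (5).

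All lines are leukaemic, so no normal granulocyte, monocyte or erythroid precursor stands among them, and lineage goes with the fusion genes and with culture. Lines grew in RPMI, IMDM or alpha-MEM with serum. F-36P, an erythroid line, also received IL-3, and OCI-AML2, OCI-AML3 and OCI-AML5 received GM-CSF or SCF. With 1 array per line, p-values measure the spread between lines, and in a bulk sample fewer expressing cells and less RNA per cell cannot be told apart.

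The median signal was 68.2 to 115.4 on 30 arrays, 198.4 on NOMO-1 and 243.3 on GF-D8, where genes of low level read higher. Each array also carries GAPDH control probe sets at both ends of the transcript. The 3' signal divided by the 5' signal, a ratio that climbs with RNA degradation, was above 2 on 2 of 6 granulocytic arrays (HL-60 7.08, NB-4 6.84), 3 of 6 monocytic arrays (MOLM-13 2.61, THP-1 2.42, NOMO-1 2.84) and 0 of 5 erythroid arrays. It was also above 2 on GDM-1, ML-2 and GF-D8. Over 10 measured erythroid markers the mean log2 level was 5.96 to 6.16 in granulocytic units, 5.87 to 7.30 in monocytic units (highest in NOMO-1) and 7.17 to 10.42 in erythroid units. Over 10 granulocytic markers it was 11.02 to 13.37 in granulocytic, 11.50 to 13.53 in monocytic and 7.22 to 8.68 in erythroid units. Over 11 monocytic markers it was 6.15 to 8.32 in granulocytic, 7.60 to 10.73 in monocytic and 5.69 to 6.88 in erythroid units. Over 9 megakaryocyte markers it was 5.89 to 6.09 in granulocytic, 5.53 to 7.37 in monocytic and 6.52 to 9.70 in erythroid units. HEL was highest of all 30 units there, KMOE-2 stood higher for megakaryocyte (8.53) than for erythroid markers (7.17), and SET2, a megakaryoblastic line, had the highest erythroid mean (10.50). Their part in the differences from erythroid lines was not tested. The granulocytic and monocytic ranges overlapped for granule markers. CD14, the defining monocyte receptor, averaged 5.57 in granulocytic, 6.03 in monocytic and 4.69 in erythroid units, below the overall median of 6.73 in each. Of the 11 monocytic markers, 10 lay above that median in at least 1 monocytic unit, CD14 among them (7.52 in NOMO-1). That held for 9 in granulocytic and 5 in erythroid units.

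The promoters of the 5 genes that passed a test between origins are shown first, since they are the stretches at which such factors could act on each other. In RefSeq sequence of build GRCh38.p14, 12 promoter windows of 7 of the 9 genes were searched. Each ran from 250 bases before to 50 bases after an annotated start. CEBPD and SPI1 were not searched. Capitals mark a match on either strand to GAGGAA (a core bound by PU.1 and other ETS factors), TTGCNNAA (C/EBP), GATAA (GATA factors) or AATCAC (GFI1 and GFI1B). 1 window is printed for each gene. Each sequence is written 5′ to 3′ on the gene's strand.
CEBPA, chr19:33302485-33302784, minus strand: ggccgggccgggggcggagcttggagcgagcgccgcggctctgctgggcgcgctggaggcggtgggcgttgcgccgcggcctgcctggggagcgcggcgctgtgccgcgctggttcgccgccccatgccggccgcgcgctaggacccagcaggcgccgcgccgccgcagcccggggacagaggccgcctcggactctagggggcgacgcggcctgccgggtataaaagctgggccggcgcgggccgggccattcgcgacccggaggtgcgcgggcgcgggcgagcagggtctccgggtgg
CEBPE, chr14:23119206-23119505, minus strand: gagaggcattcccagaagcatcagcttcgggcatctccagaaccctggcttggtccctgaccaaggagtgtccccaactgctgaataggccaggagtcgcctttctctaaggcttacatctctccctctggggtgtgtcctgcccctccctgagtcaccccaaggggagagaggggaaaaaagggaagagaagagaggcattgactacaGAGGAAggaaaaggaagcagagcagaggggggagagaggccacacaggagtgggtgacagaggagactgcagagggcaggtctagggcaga
GFI1, second window, chr1:92486050-92486349, minus strand: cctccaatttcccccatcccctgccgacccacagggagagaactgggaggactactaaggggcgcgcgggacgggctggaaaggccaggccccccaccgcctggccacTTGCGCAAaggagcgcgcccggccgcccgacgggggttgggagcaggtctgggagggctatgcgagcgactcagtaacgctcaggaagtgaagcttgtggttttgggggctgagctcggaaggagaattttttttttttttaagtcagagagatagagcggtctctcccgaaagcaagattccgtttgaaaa
IRF8, first window, chr16:85902580-85902879, plus strand: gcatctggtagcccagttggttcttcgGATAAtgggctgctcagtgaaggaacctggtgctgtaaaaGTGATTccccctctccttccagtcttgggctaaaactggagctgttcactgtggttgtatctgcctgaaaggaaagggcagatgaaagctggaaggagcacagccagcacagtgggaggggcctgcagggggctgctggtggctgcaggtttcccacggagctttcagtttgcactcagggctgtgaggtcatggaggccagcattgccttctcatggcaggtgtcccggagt
KLF4, chr9:107489720-107490019, minus strand: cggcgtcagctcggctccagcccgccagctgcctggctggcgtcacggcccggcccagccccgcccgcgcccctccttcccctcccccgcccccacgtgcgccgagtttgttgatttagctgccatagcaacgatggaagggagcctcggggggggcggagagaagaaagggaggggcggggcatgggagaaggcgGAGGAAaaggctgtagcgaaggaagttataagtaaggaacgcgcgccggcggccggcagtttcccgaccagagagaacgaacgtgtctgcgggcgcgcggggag
The CEBPA window, 80.7% G and C, held none of the 4 motifs. CEBPE and KLF4 each held 1 GAGGAA, starting 41 and 54 bases before the start. Of the 3 GFI1 windows, the first, at the gene's 5′ end and not printed, held none of the 4 motifs. The printed second window, whose start lies inside the gene, held a TTGCNNAA that reads on both strands, 142 bases before that start. The third, not printed, held a GAGGAA 30 bases before its start. The first IRF8 window held a GATAA 223 bases and, on the opposite strand, an AATCAC 183 bases before its start. The second IRF8 window, not printed, held none of the 4 motifs. Both IRF8 windows lie inside the gene (chr16:85899162-85922609), and neither covers its 5′ end. Of 35116 promoter windows of this length, 27.9% held GAGGAA, 10.5% TTGCNNAA, 22.7% GATAA and 10.2% AATCAC. A match is a description of letters and shows no binding.

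The 9 genes differed widely in how much they varied between lines. The SD over 30 units was 2.60 for CEBPA, 2.67 for CEBPD and 2.63 for IRF8 on the log2 scale, within the most variable 2% of tested genes. CEBPB and CEBPG, both with an SD of 0.82, were close to the median gene (0.801). On the same scale, the highest and lowest units lay 8.94 apart for CEBPD, 8.87 for CEBPA, 7.37 for GFI1, 7.31 for IRF8, 6.94 for CEBPE, 6.26 for KLF4 and 5.19 for SPI1. The lowest unit lay below the overall median for each of these 7, where the added 16 narrows a difference. The distance was 3.31 for CEBPB and 3.02 for CEBPG, which lay above the overall median in all 30 units.

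**Figure D1:**
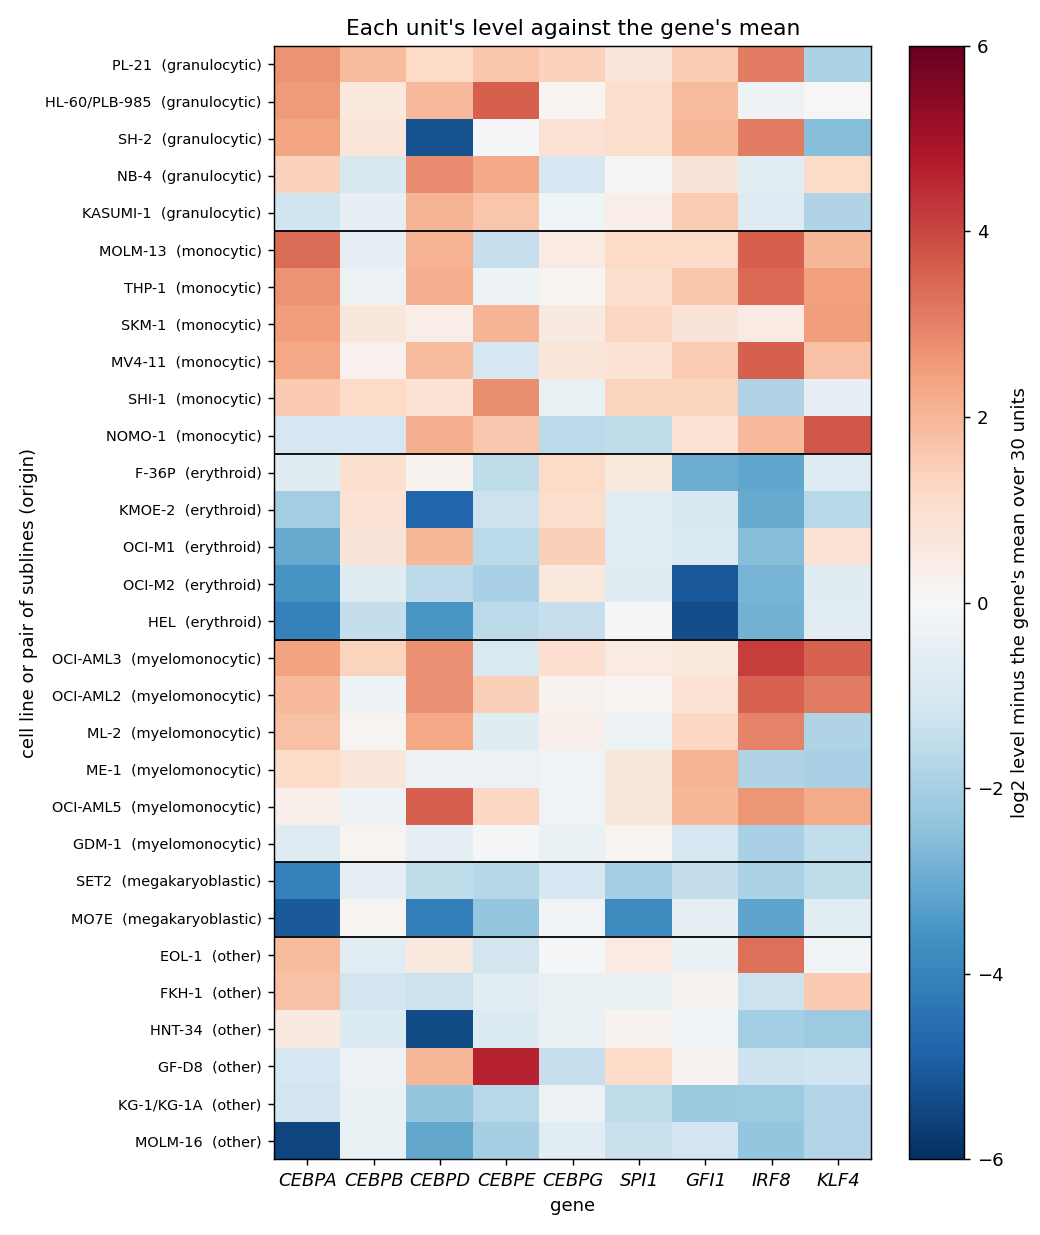
Each row is a unit (1 line, or 1 pair of sublines), grouped by origin, and each column a gene; colour gives the log2 level minus that gene's mean over 30 units. The erythroid rows are blue for CEBPA, GFI1 and IRF8, while CEBPB and CEBPG stay pale throughout.

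Against the erythroid lines, 4 of the 9 genes were higher in the granulocytic lines (CEBPA, CEBPE, GFI1 and IRF8) and 4 in the monocytic lines (CEBPA, GFI1, IRF8 and KLF4), and 0 were lower in either. Without both SH-2 and PL-21, 2 were higher in granulocytic lines (CEBPE and GFI1) and 4 in monocytic lines. The test was limma with Benjamini-Hochberg adjustment over all 15455 genes at a threshold of 0.05. By the same test, 1.58% of all genes were higher and 2.12% lower in granulocytic lines, and 3.55% were higher and 2.34% lower in monocytic lines. The 9 genes were named with earlier results of these data known. The median log2 difference over the 9 genes was 2.07 for granulocytic minus erythroid and 2.58 for monocytic minus erythroid, against 0.03 and 0.12 over all tested genes. Between granulocytic and monocytic lines, 0 of the 9 genes passed, as did 0.0453% of all genes, 7 in number, although 1082 had an unadjusted p under 0.05. There the median was -0.06 over the 9 genes and -0.10 over all. The median over all genes depends on scaling: with each array centred on its median it was -0.01 for granulocytic minus erythroid, -0.15 for monocytic minus erythroid and 0.14 for granulocytic minus monocytic. Both comparisons with the erythroid lines use the same 5 erythroid units.

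**Figure D2:**
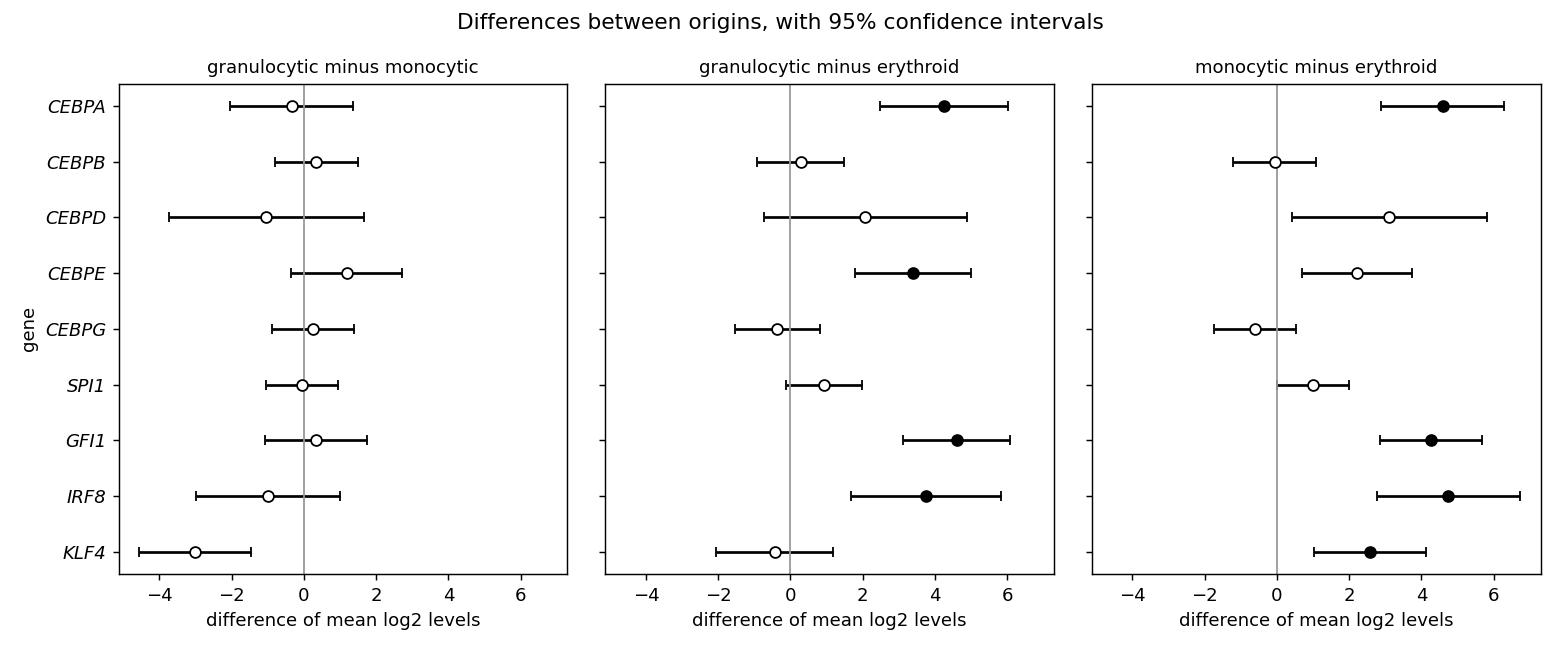
Difference of mean log2 levels for the 9 genes in the 3 comparisons, with 95% confidence intervals; filled points have an adjusted p under 0.05 (limma, Benjamini-Hochberg over all genes). CEBPA and GFI1 lie above 4 in both comparisons with erythroid lines, and all 9 points are open for granulocytic minus monocytic.

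CEBPA (probe set 204039_at, chr19:33299934-33302534) was high in granulocytic and monocytic lines and low in erythroid lines. It stood at 13.62 in PL-21, 13.47 in HL-60/PLB-985, 13.31 in SH-2, 12.31 in NB-4 and 9.74 in KASUMI-1. The monocytic units ran from 9.92 (NOMO-1) through a median of 13.33 to 14.28 (MOLM-13). In erythroid units it was 10.21 in F-36P, 8.84 in KMOE-2, 7.90 in OCI-M1, 7.37 in OCI-M2 and 6.86 in HEL. KASUMI-1 and NOMO-1 thus fell within the erythroid range, below F-36P, and all other granulocytic and monocytic units lay above it. The difference was 4.25 ± 0.84 for granulocytic minus erythroid (adjusted p = 0.0075, 19-fold in signal + 16) and 4.59 ± 0.81 for monocytic minus erythroid (adjusted p = 0.00252, 24.1-fold), with standard errors after the ± sign here and below. Without the arrays of GAPDH ratio above 2 these were 4.21 (adjusted p = 0.0218) and 4.81 (adjusted p = 0.0221). Without both SH-2 and PL-21, a setting chosen after seeing the data, the granulocytic call was lost (3.60, adjusted p = 0.0695). Granulocytic minus monocytic was -0.34, with a 95% interval from -2.04 to 1.36 and an adjusted p of 0.944. Myelomonocytic units averaged 12.04 ± 1.19 (SD, n = 6). The lowest levels of all were in the platelet-type lines and MOLM-16, with 6.86 in SET2, 5.87 in MO7E and 5.40 in MOLM-16.

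CEBPE (214523_at, chr14:23117306-23119255), the C/EBP gene of late granulocyte maturation, was near the overall median in erythroid lines and above it in all granulocytic lines. The granulocytic units had 11.65 in HL-60/PLB-985, 10.33 in NB-4, 9.73 in KASUMI-1, 9.72 in PL-21 and 7.93 in SH-2. Monocytic units spread from 6.69 (MOLM-13) through a median of 8.73 to 10.82 (SHI-1), and erythroid units held between 6.10 (OCI-M2) and 6.76 (KMOE-2), with a median of 6.50. Granulocytic and erythroid units did not overlap, as for 2.89% of all genes with granulocytic lines higher, whereas MOLM-13 lay inside the erythroid range. Granulocytic minus erythroid was 3.40 ± 0.76 (adjusted p = 0.0163) and monocytic minus erythroid was 2.22 ± 0.73 (adjusted p = 0.0833). The first call was lost under 3 of 29 other settings, among them without HL-60/PLB-985 (2.96, adjusted p = 0.055) and without the arrays of high GAPDH ratio (3.26, adjusted p = 0.0564), and the second was gained without MOLM-13 (2.62, adjusted p = 0.0458). Granulocytic minus monocytic was 1.18, with an interval from -0.35 to 2.72. The highest CEBPE level of all, 12.69, was in GF-D8, and 10 units at 9.28 or more stood apart from 20 at 7.94 or less. The upper units were 4 granulocytic, 3 monocytic (SKM-1, NOMO-1 and SHI-1), OCI-AML2, OCI-AML5 and GF-D8.

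CEBPD (203973_s_at, chr8:47736913-47738164), induced by cytokines and inflammatory signals, varied widely within the granulocytic and the erythroid lines. Granulocytic units had 13.76 in NB-4, 12.95 in KASUMI-1, 12.86 in HL-60/PLB-985, 12.14 in PL-21 and 5.69 in SH-2. The monocytic range was narrow, from 11.33 (SKM-1) through a median of 12.93 to 13.09 (THP-1). Erythroid units had 12.93 in OCI-M1, 11.13 in F-36P, 9.35 in OCI-M2, 7.42 in HEL and 6.19 in KMOE-2. The erythroid range overlapped both others, and SH-2 lay below every erythroid unit. Neither difference from erythroid lines passed, at 2.07 ± 1.33 for granulocytic (adjusted p = 0.49) and 3.11 ± 1.28 for monocytic lines (adjusted p = 0.163). Without SH-2, the monocytic difference had an adjusted p of 0.0493. The highest level, 14.51, was in OCI-AML5, followed by NB-4 (13.76), OCI-AML2 (13.69), OCI-AML3 (13.68) and ML-2 (13.23). OCI-AML5, OCI-AML2 and OCI-AML3 are the 3 lines grown with GM-CSF or SCF. F-36P, grown with IL-3, had 11.13. Culture and line cannot be told apart there. A second CEBPD probe set, 213006_at, averaged 5.87, was above the overall median on only 8 of 32 arrays and correlated with the first at r = 0.84.

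CEBPB (212501_at, chr20:50190583-50192690), an activator in macrophages and in stress-driven granulocyte production, was uniformly high. It averaged 12.64 ± 1.11 in granulocytic, 12.31 ± 0.82 in monocytic and 12.37 ± 1.10 in erythroid units (SD, n = 5, 6 and 5). The highest unit was PL-21 at 14.16 and the lowest HEL at 10.85, and all groups overlapped. The granulocytic minus erythroid difference was 0.28, with an interval from -0.93 to 1.48, and monocytic minus erythroid was -0.06, from -1.22 to 1.09. The monocytic sign turned positive (0.60) without the arrays of high GAPDH ratio. CEBPG (225527_at, chr19:33373709-33382686), a dimer partner that lacks an activation domain and lies next to CEBPA on the same chromosome, behaved alike. It averaged 11.15 ± 0.93 in granulocytic, 10.91 ± 0.86 in monocytic and 11.51 ± 1.13 in erythroid units (SD, n = 5, 6 and 5). Differences were -0.36 for granulocytic minus erythroid (adjusted p = 0.834) and -0.61 for monocytic minus erythroid (adjusted p = 0.542, interval from -1.74 to 0.53). HEL at 9.56 was the lowest erythroid unit for CEBPG, while the others had 11.57 to 12.38. A second CEBPG probe set, 204203_at, correlated with the first at r = 0.768 over 32 arrays. It averaged 10.50 on granulocytic, 10.79 on monocytic and 10.63 on erythroid arrays. By it the monocytic mean was above both others, whereas by the first probe set it was below both.

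SPI1 (205312_at, chr11:47354860-47378547), the gene of PU.1, was present in lines of all 3 origins. Granulocytic units had 9.30 in SH-2, 9.26 in HL-60/PLB-985, 8.99 in PL-21, 8.66 in KASUMI-1 and 8.17 in NB-4. Monocytic units ran from 6.74 (NOMO-1) through a median of 9.35 to 9.61 (SHI-1). Erythroid units had 8.89 in F-36P, 8.13 in HEL, 7.63 in KMOE-2, 7.57 in OCI-M1 and 7.54 in OCI-M2. F-36P lay within the granulocytic range, and NOMO-1, an array of raised median signal and GAPDH ratio, lay below every erythroid unit. Granulocytic minus erythroid was 0.93 ± 0.50 (adjusted p = 0.375) and monocytic minus erythroid was 0.99 ± 0.47 (adjusted p = 0.236). Without NOMO-1 the monocytic difference was 1.43 with an adjusted p of 0.0153. Granulocytic minus monocytic was -0.06, with an interval from -1.06 to 0.94, and turned to 0.18 with median centring and 0.14 with quantile normalization. The lowest units were MO7E at 4.42 and SET2 at 6.24, the 2 megakaryoblastic lines, and the step of 1.82 between them was 35.1% of the whole SPI1 range.

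GFI1 (206589_at, chr1:92473043-92486925) separated the erythroid lines from both others without overlap. It was 12.90 in SH-2, 12.80 in HL-60/PLB-985, 12.43 in PL-21, 12.39 in KASUMI-1 and 11.66 in NB-4. Monocytic units stayed between 11.68 (SKM-1) and 12.53 (THP-1), with a median of 12.13. Erythroid units had 10.01 in OCI-M1, 9.94 in KMOE-2, 7.89 in F-36P, 5.79 in OCI-M2 and 5.57 in HEL. The granulocytic and monocytic units were thus uniform and the erythroid ones spread widely, with OCI-M2 and HEL below the overall median. The difference was 4.60 ± 0.70 for granulocytic minus erythroid (adjusted p = 0.00104, 24.2-fold) and 4.26 ± 0.67 for monocytic minus erythroid (adjusted p = 0.00115, 19.2-fold). Higher groups without overlap were found for 2.89% of genes in the first comparison and 3.10% in the second. Without the arrays of GAPDH ratio above 2, the differences were 4.70 (adjusted p = 0.0151) and 4.27 (adjusted p = 0.0498). Between granulocytic and monocytic lines it was 0.34, with an interval from -1.08 to 1.75. Megakaryoblastic lines were intermediate, at 10.30 in MO7E and 9.44 in SET2, and ME-1, a myelomonocytic line, was highest at 12.95.

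IRF8 (204057_at, chr16:85899162-85922609) was near the overall median in every erythroid line and above it in every granulocytic and monocytic line. Granulocytic units had 12.58 in both SH-2 and PL-21, 9.17 in HL-60/PLB-985, 8.81 in NB-4 and 8.72 in KASUMI-1. Monocytic units ran from 7.70 (SHI-1) through a median of 12.18 to 13.10 (MV4-11), and erythroid units from 6.36 (F-36P) through 6.68 to 6.92 (OCI-M1). All granulocytic and monocytic units lay above all erythroid units. Such a higher group without overlap was found for 2.89% of all genes with granulocytic and 3.10% with monocytic lines. Over all 30 units, a gap fell between 9.99 (SKM-1) and 11.46 (NOMO-1), with 19 units below and 11 above; the HL-60 array by itself (10.15) lay inside that gap. The upper 11 were 2 granulocytic, 4 monocytic and 4 myelomonocytic units and EOL-1. Granulocytic minus erythroid was 3.75 ± 0.99 (adjusted p = 0.0424) and monocytic minus erythroid was 4.74 ± 0.94 (adjusted p = 0.00561). The granulocytic call was lost under 17 of 29 other settings. Without PL-21 and without SH-2, the 2 granulocytic units of high IRF8, the adjusted p was 0.114 and 0.0973, and without both the difference was 2.27 (adjusted p = 0.276). The monocytic call was lost under 1, leaving out the arrays of GAPDH ratio above 2 (3.63, adjusted p = 0.196), which removes 3 of the 6 monocytic units. Granulocytic minus monocytic was -0.998, with an interval from -2.99 to 0.99.

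KLF4 (221841_s_at, chr9:107484852-107489769), known for a part in monocyte differentiation, was at or below the overall median in 17 of 30 units. Granulocytic units had 8.11 in NB-4, 6.97 in HL-60/PLB-985, 5.14 in KASUMI-1, 5.03 in PL-21 and 4.39 in SH-2. The monocytic units ran from 6.46 (SHI-1) through a median of 9.17 to 10.65 (NOMO-1). Erythroid units had 7.83 in OCI-M1, 6.30 in HEL, 6.22 in OCI-M2, 6.18 in F-36P and 5.26 in KMOE-2. Apart from SHI-1, the monocytic units lay above all granulocytic and erythroid units. Monocytic minus erythroid was 2.58 ± 0.74 (adjusted p = 0.0464). That call was lost under 19 of 29 other settings, including leaving out NOMO-1 (2.24, adjusted p = 0.0925) and the arrays of high GAPDH ratio (1.86, adjusted p = 0.298). Granulocytic minus monocytic was the widest difference of the 9 genes in that comparison, at -3.01 ± 0.74, but did not pass (adjusted p = 0.203); without SHI-1 it was -3.51 (adjusted p = 0.0422). Granulocytic minus erythroid was -0.43, with an interval from -2.05 to 1.19, and turned to 0.38 without both SH-2 and PL-21. A second KLF4 probe set, 220266_s_at, was above the overall median on 4 of 32 arrays and correlated with the first at r = 0.772.

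**Figure D3:**
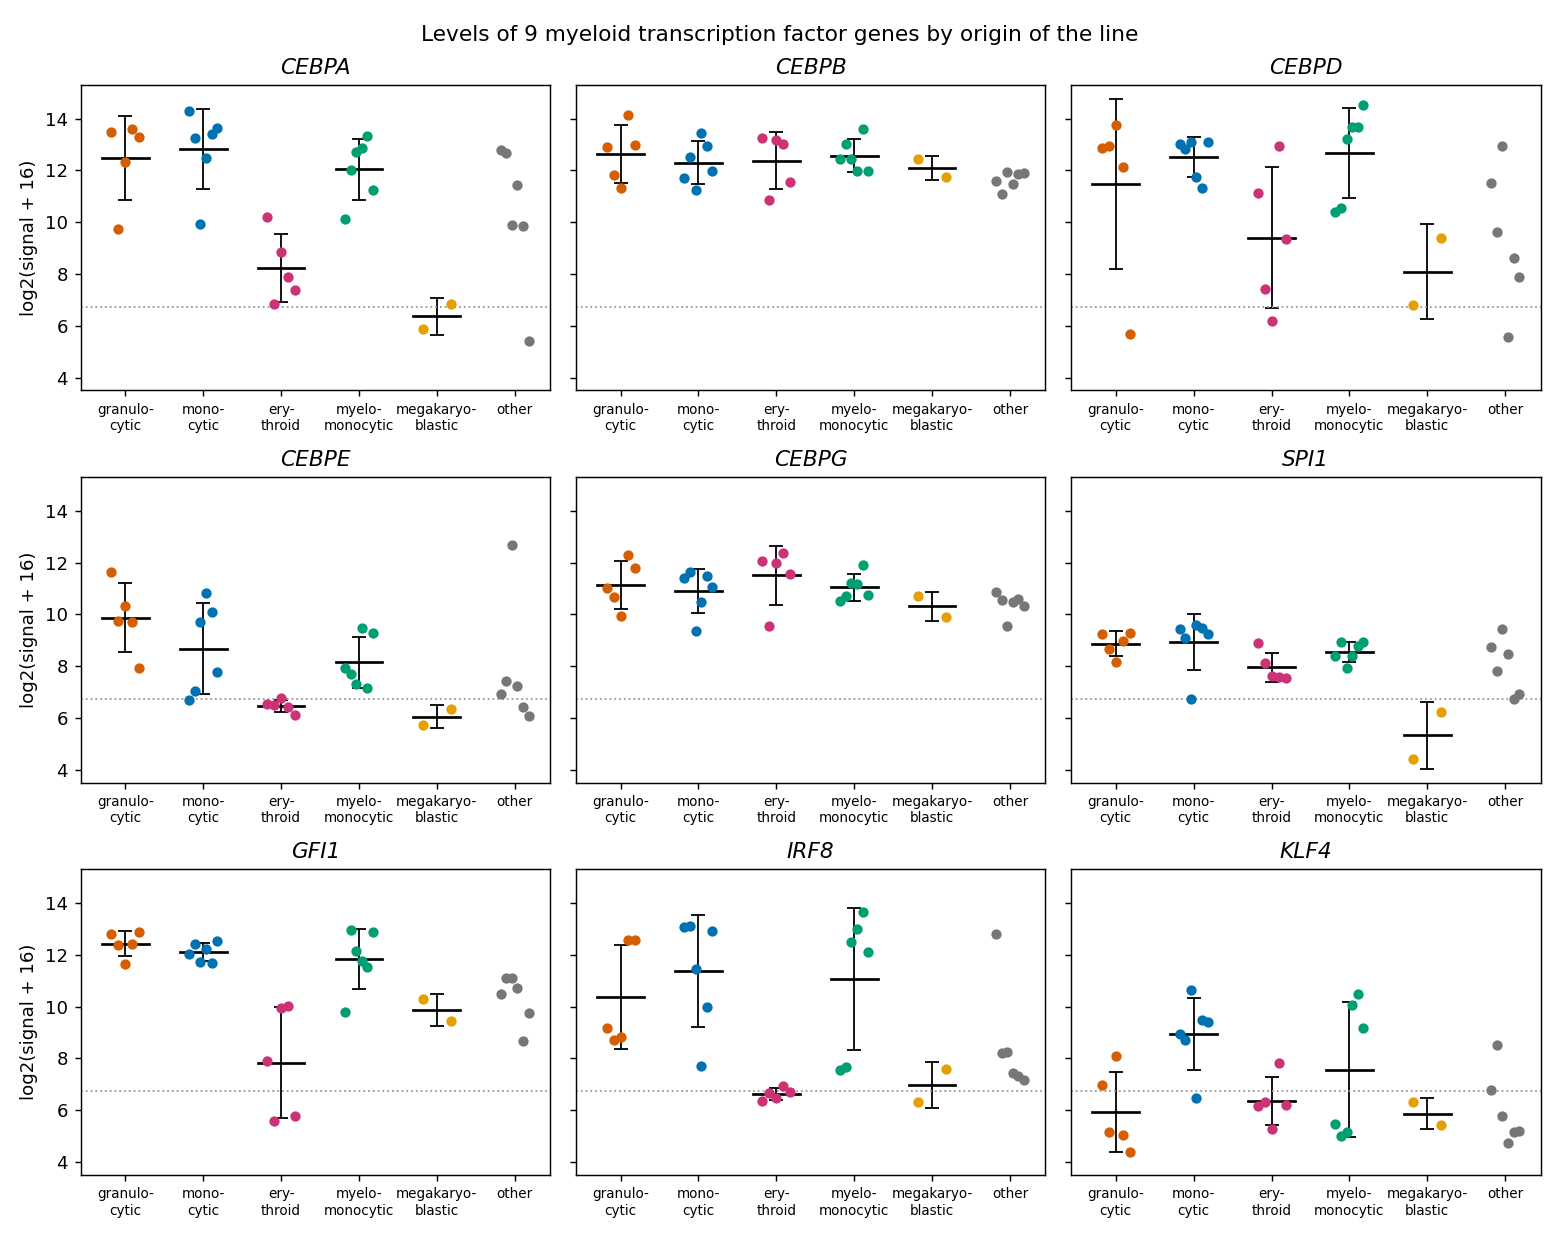
Log2 levels of the 9 genes in 30 units by origin of the line; bars give the mean and SD of each group except the mixed last one, and the dotted line is the overall median of 6.73. Erythroid points lie below all granulocytic and monocytic points for GFI1 and IRF8, and KLF4 is above the line in 5 of 6 monocytic units. Of all tested genes, 2.89% had every granulocytic unit above every erythroid unit, and 3.10% had every monocytic unit above them.

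The myelomonocytic lines resembled no single origin throughout. CEBPA (12.04 ± 1.19), GFI1 (11.84 ± 1.15) and CEBPD (12.68 ± 1.75) averaged near the granulocytic and monocytic means (SD, n = 6). For IRF8 and KLF4 these lines split: IRF8 was 12.12 to 13.64 in OCI-AML5, ML-2, OCI-AML2 and OCI-AML3 but 7.55 in GDM-1 and 7.67 in ME-1. KLF4 was 10.50 in OCI-AML3, 10.07 in OCI-AML2 and 9.19 in OCI-AML5, against 5.48 in GDM-1, 5.15 in ML-2 and 5.02 in ME-1. No test was made of these lines against the others.

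Sublines of 1 donor differed in some of these genes by several times the typical gene. PLB-985 had an IRF8 level of 8.20 and HL-60 one of 10.15, a difference of -1.95, where the median absolute difference over tested genes was 0.579. GFI1 was 0.75 lower and CEBPA 0.71 lower in PLB-985. KG-1A had an SPI1 level of 5.48 and KG-1 one of 7.97 (-2.48), and a CEBPD level of 7.40 against 9.85 in KG-1 (-2.45), where the median absolute difference was 0.469. CEBPG differed by 0.07 and -0.08 in the 2 pairs. Each value is from 1 array, and HL-60, but not PLB-985, had a GAPDH ratio above 2.

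Genes that these factors are known to act on were then described, as lists chosen with earlier results of these data known. The counts stand beside 1.58% of all genes higher and 2.12% lower in granulocytic lines, 3.55% higher and 2.34% lower in monocytic lines, and 0.0453% called between them. Of 11 tested azurophil granule genes, which C/EBP factors, PU.1 and GFI1 act on in promyelocytes, 6 were higher in granulocytic and 6 in monocytic lines than in erythroid lines, and 0 were lower. Median differences over the list were 6.32 and 5.34 on the log2 scale. MPO (myeloperoxidase) differed by 9.09 ± 1.22 for granulocytic minus erythroid (adjusted p = 0.000287) and by 5.95 ± 1.17 for monocytic minus erythroid (adjusted p = 0.00518). ELANE (neutrophil elastase) differed by 6.75 ± 1.49 for granulocytic minus erythroid (adjusted p = 0.015) and by 8.59 ± 1.42 for monocytic minus erythroid (adjusted p = 0.00167). For granulocytic minus erythroid, PRTN3 (proteinase 3) differed by 8.16 ± 0.87 and AZU1 (azurocidin) by 7.54 ± 0.83. RNASE2 differed by 7.52 ± 0.61 for monocytic minus erythroid. None passed for granulocytic minus monocytic.

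Genes of the specific granules are made later in neutrophil maturation. Of 16 such genes, 5 (LTF, MMP8, CEACAM8, PGLYRP1 and OLFM4) did not pass the filter on low values. Of the 11 tested, 0 passed for granulocytic minus erythroid, and 3 were higher and 1 lower for monocytic minus erythroid. The medians over the 11 were 1.14 and 1.67. For monocytic minus erythroid, CHI3L1 differed by 8.39 ± 1.32, S100A8 by 7.91 ± 1.52 and S100A9 by 6.38 ± 1.40, with CRISP3 at -4.19 ± 1.05 (adjusted p = 0.00114, 0.00465, 0.0111 and 0.0252). S100A8 and S100A9 are also monocyte genes.

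Of 19 tested receptor genes known as targets of PU.1 and C/EBPα, 2 were higher in granulocytic and 8 in monocytic lines than in erythroid lines. The list medians were 0.88 and 2.41. IL6R, the interleukin-6 receptor, averaged 11.01 in granulocytic, 11.43 in monocytic and 6.69 in erythroid units, with differences from erythroid of 4.32 ± 0.85 (adjusted p = 0.0075) and 4.74 ± 0.82 (adjusted p = 0.0021). CSF3R, the G-CSF receptor, differed by 3.03 ± 0.69 for granulocytic minus erythroid (adjusted p = 0.019) and by 3.34 ± 0.66 for monocytic minus erythroid (adjusted p = 0.00558). CSF1R, the M-CSF receptor, differed by 3.34 ± 0.56 for monocytic minus erythroid (adjusted p = 0.00187) and by 1.58 ± 0.59 for granulocytic minus erythroid (adjusted p = 0.159). TLR2, an innate immune receptor, differed by 4.73 ± 0.87 and the chemokine receptor CCR2 by 4.47 ± 1.18 for monocytic minus erythroid. CX3CR1, the fractalkine receptor, was the gene of the list that passed between the myeloid origins, at -4.26 ± 0.73 for granulocytic minus monocytic (adjusted p = 0.0419).

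Of 14 tested monocyte genes tied to IRF8 and KLF4, 1 was higher in granulocytic and 4 in monocytic lines than in erythroid lines. MNDA, an interferon-inducible nuclear protein gene, differed by 6.51 ± 0.90 for granulocytic minus erythroid and by 5.07 ± 0.86 for monocytic minus erythroid. CX3CR1 (3.82 ± 0.73), TNFAIP2 (2.45 ± 0.60) and NAAA (2.09 ± 0.45) were the other 3 in monocytic lines. CD14 did not pass, with 1.34 ± 0.59 for monocytic minus erythroid (adjusted p = 0.197), nor did CD74 or CTSS (adjusted p = 0.525 and 0.783). The list medians were 0.28 and 1.18, and -0.71 for granulocytic minus monocytic.

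GFI1B, GATA1, TAL1 and KLF1, factors of red cell precursors, were lower in both the granulocytic and the monocytic lines. Of 14 erythroid factor genes tested, 5 were lower and 2 higher in granulocytic than in erythroid lines, and the same counts held for monocytic lines, with list medians of -1.44 and -1.08. GFI1B averaged 5.03 in granulocytic, 5.56 in monocytic and 12.27 in erythroid units, with differences of -7.25 ± 0.60 (adjusted p = 1.69e-06) and -6.71 ± 0.57 (adjusted p = 2.43e-06). TAL1 differed by -5.95 ± 0.55 and -5.52 ± 0.53, GATA1 by -5.22 ± 0.60 and -4.11 ± 0.58, and KLF1 by -4.24 ± 0.81 and -5.13 ± 0.78. GATA2 passed for monocytic minus erythroid alone (-1.99 ± 0.51, adjusted p = 0.0298, against -1.70 ± 0.54 and 0.0929 for granulocytic), and the difference between these was not called (0.28, adjusted p = 0.935). The 2 higher genes, named after their values were seen, were BCL11A (2.87 and 1.78) and IKZF1 (1.73 and 1.66), which also act in lymphoid cells.

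Other factors of myeloid differentiation and partners of the C/EBP proteins were counted in the same way. Of 28 further myeloid factor genes, 2 were higher and 1 lower in each comparison with erythroid lines, with medians of 0.60 for granulocytic and 0.47 for monocytic lines. RUNX3 differed by 4.01 ± 1.08 and 4.25 ± 1.03, and the vitamin D receptor gene VDR by 1.43 ± 0.34 and 1.30 ± 0.32. The lower genes were MITF for granulocytic (-2.21 ± 0.60) and STAT3 for monocytic lines (-1.70 ± 0.43). Of 18 C/EBP dimer partners, regulators and targets, 0 were higher. ID1 (-3.59 ± 0.82) and PTGS2 (-2.04 ± 0.50) were lower in granulocytic lines, and TRIB2, a pseudokinase that promotes loss of C/EBPα protein, was lower in monocytic lines (-3.95 ± 0.79, adjusted p = 0.00585).

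Across the 30 units, 55 relations were computed, 36 between the 9 genes and 19 with a known target, opposing gene or other partner gene. The p-values were adjusted over all 55. By Pearson's r 28 passed, by Spearman's rho 30, and by both 26, of which 16 were between the 9 genes. Permutation tests with 100000 resamples gave the p-values, of which 1e-05 is the smallest possible. Each point is 1 array or the mean of a pair of sublines. The points share origins and RNA quality, so the same relations were computed within subsets.

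Among the 9 genes, the 2 highest values of r were those of CEBPA with SPI1 and with IRF8. The r of CEBPA with SPI1 was 0.741 (rho 0.731; adjusted permutation p = 9.17e-05 and 0.00033), with IRF8 0.727 (rho 0.815) and with GFI1 0.691 (rho 0.677; adjusted permutation p = 0.000344 and 0.00065). Without the 2 units of farthest CEBPA level, MO7E and MOLM-16, r was 0.667 with SPI1, 0.716 with IRF8 and 0.754 with GFI1. In the 23 units of low GAPDH ratio these were 0.786, 0.703 and 0.678, and in the 25 units not of erythroid origin 0.788, 0.666 and 0.652. Within the 17 units of granulocytic, monocytic or myelomonocytic origin, a subset chosen after seeing the data, they were 0.611, 0.498 and 0.333, and 0 of the 55 relations passed there (adjusted permutation p = 0.0995 for CEBPA with SPI1). An unadjusted p under 0.05 was reached there by 13 relations. On the 8 arrays of high GAPDH ratio 0 passed as well, and 3 had an unadjusted p under 0.05.

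CEBPB and CEBPG, which differed little between origins, varied together, with r = 0.699 (rho 0.662; adjusted permutation p = 0.000236 and 0.00065). The value was 0.628 without OCI-AML3 and PL-21, 0.705 in units of low GAPDH ratio and 0.668 within the 17 granulocytic, monocytic and myelomonocytic units (adjusted permutation p = 0.068). CEBPD with KLF4 gave 0.608 (rho 0.595; adjusted permutation p = 0.00235 and 0.00249), 0.539 without HNT-34 and SH-2, and 0.581 within the 17 units. GFI1 with IRF8 gave 0.615 (rho 0.686) overall and 0.214 within the 17. CEBPA with CEBPG gave 0.318 over all units and 0.713 within the 17 (adjusted permutation p = 0.136 and 0.0577). CEBPE with IRF8 gave 0.20 over all units and -0.49 within the 17, with adjusted permutation p = 0.36 and 0.201.

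**Figure D4:**
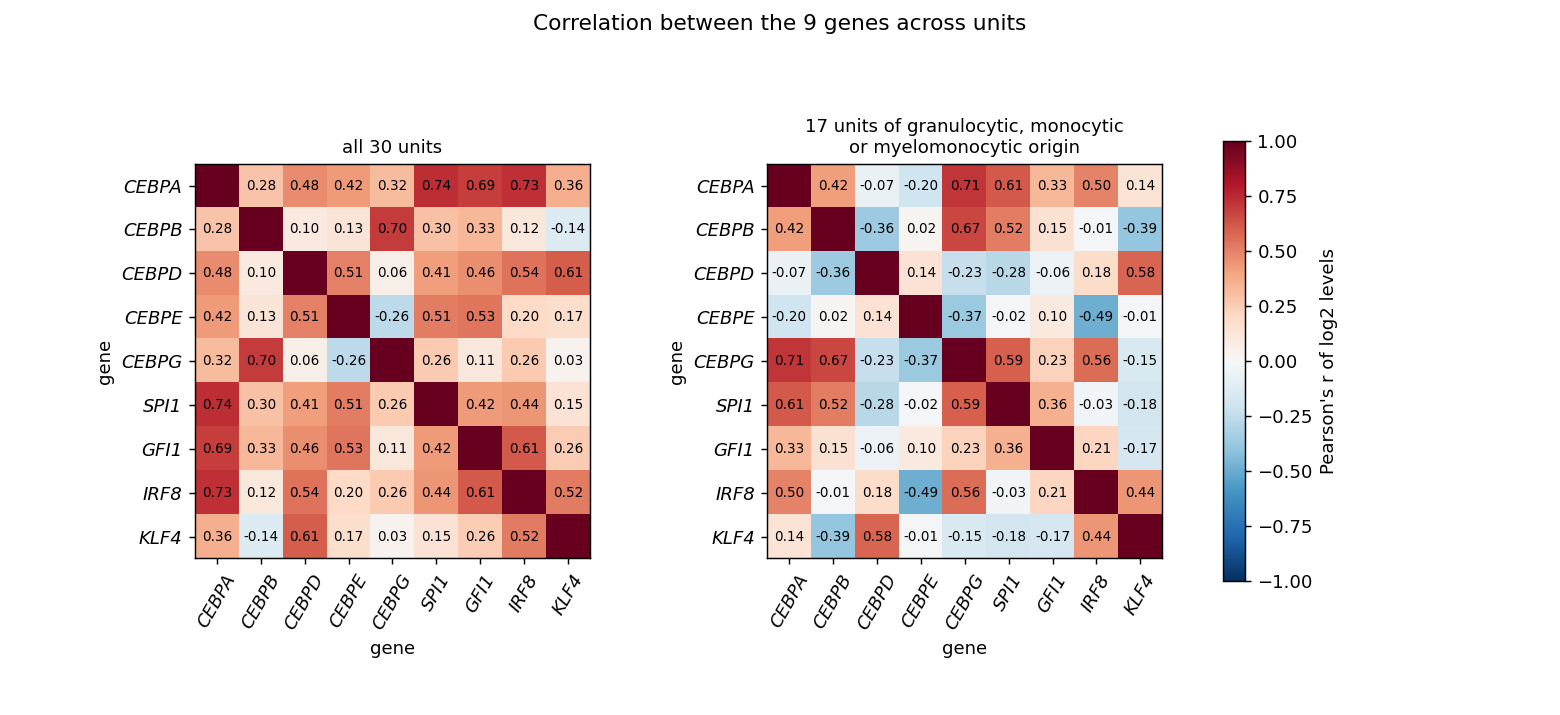
Pearson's r of log2 levels between each pair of the 9 genes, over 30 units (left) and over 17 units of granulocytic, monocytic or myelomonocytic origin (right), with r printed in each cell. The CEBPA row is strongest for SPI1, IRF8 and GFI1 on the left (0.74, 0.73 and 0.69), and CEBPB with CEBPG is alike in both (0.70 and 0.67).

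Among known targets and opposing genes, CEBPA with IL6R had the highest r, 0.831 (rho 0.790; adjusted permutation p = 9.17e-05 and 0.000183), and 0.63 within the 17 units. CEBPA ran against GATA1 with r = -0.782 (rho -0.650; adjusted permutation p = 9.17e-05 and 0.00065) and against GATA2 with -0.684 (rho -0.671). GFI1, the gene of a repressor, ran against GFI1B with -0.743 (rho -0.712, adjusted permutation p = 9.17e-05 and 0.000275). With ELANE it gave a positive r of 0.70 (rho 0.734). Within the 17 units these were -0.322, -0.394, -0.375 and 0.298, and none passed there. CEBPA against TRIB2 gave -0.531 (rho -0.415), and 0.136 within the 17. The plot of partner genes shows ME-1 apart, with GFI1 at 12.95 and GFI1B at 11.09.

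Several relations with known partner genes did not pass by r in these lines. SPI1 gave 0.344 with CSF1R and -0.19 with ITGAM, CEBPE gave -0.013 with LTF and 0.325 with CAMP, and CEBPD gave 0.341 with S100A8. IRF8 gave 0.358 with CD74, CEBPB 0.343 with DDIT3 and CEBPG 0.314 with ATF4. Adjusted permutation p-values of r ran from 0.0968 to 0.948 over these 8. CEBPB with DDIT3 passed by rho (0.451, adjusted permutation p = 0.0317). CEBPG with ATF4 was 0.653 with median centring (adjusted permutation p = 0.00055), and CEBPD with S100A8 was 0.467 without HNT-34 and SH-2 (adjusted permutation p = 0.0313). LTF, a gene of mature granules, did not pass the filter on low values. Relations that passed by r with a smaller size were CEBPA with CSF3R (0.477), CEBPE with ELANE (0.463), KLF4 with CD14 (0.479), IRF8 with CTSS (0.512) and SPI1 with GATA1 (-0.452). Within the 17 units and on the 8 arrays of high GAPDH ratio, 0 of the 55 relations passed. Each of those of smaller size also lost its call in another subset. KLF4 with CD14 was 0.254 (adjusted permutation p = 0.238) and SPI1 with GATA1 -0.423 (0.0538) without the 2 units farthest in the factor's level. In units not of erythroid origin, CEBPA with CSF3R was 0.28 (adjusted permutation p = 0.237) and CEBPE with ELANE 0.357 (0.133). IRF8 with CTSS was 0.413 in units of low GAPDH ratio (adjusted permutation p = 0.0913).

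**Figure D5:**
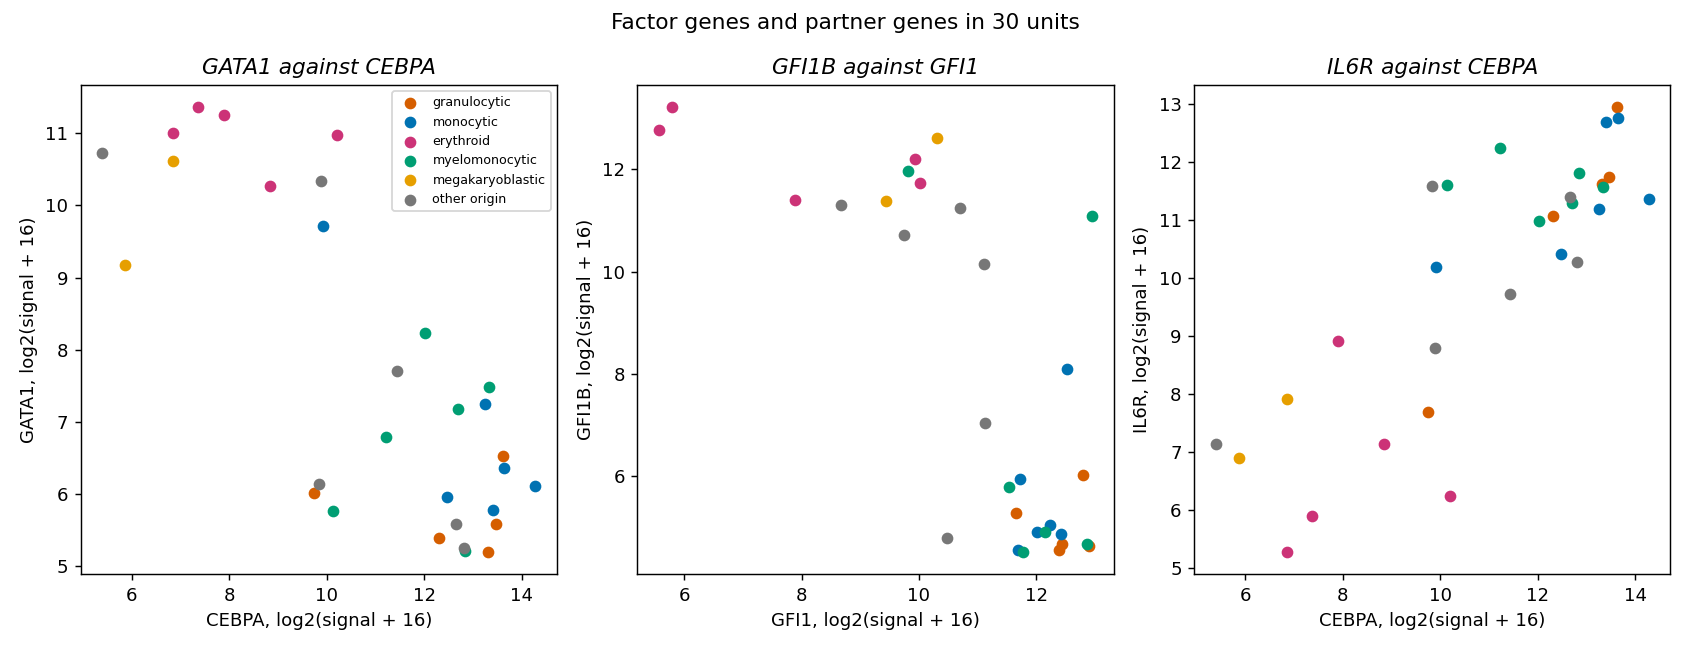
Log2 levels in 30 units, coloured by origin: GATA1 against CEBPA, GFI1B against GFI1, and IL6R against CEBPA. Erythroid and megakaryoblastic points sit in the upper part of the first 2 panels and the lower left of the last, with r = -0.782, -0.743 and 0.831.

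The genes whose pattern over 30 units was most like that of each factor, by Pearson's r over 15455 tested genes, are given as a description with no test. IRF8 had the closest matches, CCR2 (0.953), LAMP5 (0.945) and SERPINB8 (0.942). For CEBPA they were IL6R (0.831), RNASE2 (0.83) and FUT7 (0.826), for CEBPD SIMC1 (0.846), ZNF516 (0.817) and LRMDA (0.792), and for GFI1 LAIR1 (0.828), PLAC8 (0.825) and DIAPH2 (0.815). CEBPE was most like GTSF1L (0.806), CLEC5A (0.805) and PNPLA1 (0.792), and KLF4 most like COL27A1 (0.822), HNMT (0.786) and KCNG1 (0.78). SPI1 matched CEBPA (0.741) before KLHL2 (0.724) and DOCK2 (0.71). CEBPB matched JDP2 (0.703), CEBPG (0.699) and SLC7A11 (0.695), and CEBPG matched BRI3 (0.73), NAPG (0.727) and VAMP7 (0.724). The median r over all tested genes lay between -0.0815 (CEBPG) and 0.0474 (CEBPE).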

How the data were processed

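The authors deposited probe set intensity, not log-transformed, for 54675 probe sets, made with Affymetrix Expression Console per the submitters' processing notes; its version and the summarization method are not given in the sources used here. The trimmed mean was 500.05 to 500.07 on every array. Levels were computed as log2(signal + 16), unscaled. Of 41091 probe sets with a single gene symbol in the platform's annotation, 54 were not found in RefSeq's gene table. For 10523 genes with several probe sets, that of highest mean over 32 arrays was kept. Testing required a level above the overall median in at least 3 units.

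Lines were the units of testing, with 2 pairs of sublines averaged. The 16 units of 3 origins entered 1 limma fit (lmFit and trended eBayes, limma 3.58.1, R 4.3.3), two-sided, adjusted by Benjamini and Hochberg's method at 0.05. In simulated data, 200 of 15455 genes were changed in monocytic units by a known log2 step. For monocytic minus erythroid the test called 0.5% of them at a step of 1, 58% at 2 and 92% at 4. It falsely called 0, 5 and 12 other genes. In this simulation a step of 1 was thus mostly missed. In the data 548 genes were called higher and 362 lower for that comparison, more than the 200 simulated. The adjustment therefore differs, and the simulated shares cannot be carried over to the data. Figures and permutation tests used Python 3.11.15 with scipy 1.17.1 and matplotlib 3.10.9. The GAPDH limit of 2, the members and the gene lists were chosen with earlier results of these data known. Named genes are the 9 factors, their 3 most similar genes, listed partners, and from each list up to 4 genes with the largest difference passing against erythroid lines and up to 2 between the others. The number of arrays limits the precision. No batch is given in the labels.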

Additional observations from a re-analysis of the deposited data

Results flagged for a closer look

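In the granulocytic, monocytic, erythroid and myelomonocytic units, 5 or 6 to an origin, 3 of 36 combinations of a gene and an origin had a unit farther from the others than Dixon's 95% limit; chance alone would do so for about 1 in 20. The units of mixed or other origin were not examined as a group. SPI1 stood at 6.74 in NOMO-1, while the other monocytic units had 9.09 to 9.61. NOMO-1 is also the array with a median signal of 198.4 and a GAPDH ratio of 2.84, whose part in the result was not tested. CEBPD stood at 5.69 in SH-2, while the other granulocytic units had 12.14 to 13.76. CEBPG stood at 9.56 in HEL, while the other erythroid units had 11.57 to 12.38.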

How the results depend on the processing

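Each comparison between origins was repeated under 29 other settings, 16 of which leave out 1 unit. The higher calls of GFI1 against erythroid lines held under all 29 in both comparisons (adjusted p at most 0.0151 for granulocytic and 0.0498 for monocytic lines), as did that of CEBPA in monocytic lines (at most 0.0221). That of CEBPA in granulocytic lines held under 28, the exception being without both SH-2 and PL-21 (3.60, adjusted p = 0.0695), a setting chosen after seeing the data. There 2 of the 9 genes, 139 genes higher and 198 lower were called for granulocytic minus erythroid, with 3 granulocytic units in place of 5. None of the 9 genes passed for granulocytic minus monocytic, except KLF4 without SHI-1. Leaving out the arrays of GAPDH ratio above 2 left 2 of the 9 genes higher in monocytic and 2 in granulocytic than in erythroid lines (CEBPA and GFI1 in both). With that ratio as a covariate, 2 remained higher in granulocytic lines. Over all genes, leaving those arrays out gave 126 higher and 157 lower for granulocytic minus erythroid, and 110 higher and 75 lower for monocytic minus erythroid. The covariate gave 161 and 184, and 317 and 167. For granulocytic minus monocytic, 0 were higher and 1 lower without those arrays, 0 and 0 with all origins in 1 model, and 16 lower with 32 arrays as units. Fewer units enter without those arrays; for the other settings the cause was not tested.

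Leaving out 1 unit at a time gave 156 to 330 genes higher (156 without HL-60/PLB-985, 162 without PL-21) and 204 to 398 lower (204 without HL-60/PLB-985) for granulocytic minus erythroid, with 2 to 4 of the 9 genes higher. For monocytic minus erythroid it gave 392 to 694 higher and 234 (without MOLM-13) to 417 lower. For granulocytic minus monocytic it gave 1 to 3 higher (2 without HL-60/PLB-985 and without NOMO-1, 3 without SHI-1) and 4 to 27 lower (12 without KASUMI-1, 13 without KMOE-2, 15 without SKM-1, 27 without SHI-1). Signs of differences that were not called turned in some of these repeats. The ranges were -0.923 to 0.347 for CEBPA, -0.0406 to 0.665 for CEBPB, -1.61 to 0.409 for CEBPD, -0.0632 to 0.548 for CEBPG and -0.50 to 0.116 for SPI1, all for granulocytic minus monocytic. CEBPB gave -0.105 to 0.603 for granulocytic minus erythroid and -0.443 to 0.156 for monocytic minus erythroid.

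Other settings that turned a sign, none of it called, were as follows. CEBPB for monocytic minus erythroid was 0.604 without arrays of high GAPDH ratio and 0.475 with the covariate, which also gave 0.0949 for CEBPG in granulocytic minus erythroid. Without both SH-2 and PL-21, CEBPB was -0.349 and KLF4 0.384 for granulocytic minus erythroid, and CEBPB -0.286, CEBPD 0.673 and CEBPG -0.358 for granulocytic minus monocytic. For granulocytic minus monocytic, CEBPG was -0.00916 with the median over probe sets, IRF8 was 0.26 without arrays of high GAPDH ratio, and SPI1 was 0.18 with median centring, 0.136 with quantile normalization and 0.00442 with 32 arrays.

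Of 55 relations, 0 passed on the 8 arrays of high GAPDH ratio and 0 in the 17 granulocytic, monocytic and myelomonocytic units. On the 8 arrays r turned sign for CEBPA with CEBPE (-0.368) and CSF3R (-0.634), SPI1 with CEBPD (-0.0324), IRF8 (-0.00637) and CSF1R (-0.117), CEBPE with LTF (0.182), CAMP (-0.269) and ELANE (-0.308), and CEBPB with DDIT3 (-0.0247). In the 17 units it turned for CEBPA with CEBPD (-0.0684), CEBPE (-0.199), CSF3R (-0.507) and TRIB2 (0.136), for SPI1 with CEBPD (-0.281), CEBPE (-0.0214), IRF8 (-0.0266) and CSF1R (-0.0857), for CEBPD with GFI1 (-0.0621) and S100A8 (-0.247), and for CEBPE with LTF (0.16) and ELANE (-0.123). CEBPE with LTF was 0.272 in units not of erythroid origin. No paired analysis was made, since the labels name separate lines and give no pairing between origins.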
